A study of Mus musculus with 12 samples.

Results

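The ErbB receptors and their ligands were examined in mouse tumours of 3 lung adenocarcinoma lines that differ in metastatic behaviour. The genes were named by a fixed list of 4 receptor genes (Egfr, Erbb2, Erbb3 and Erbb4), 5 genes of ligands of the epidermal growth factor (EGF) type (Tgfa, Btc, Ereg, Hbegf and Areg) and the neuregulin gene Nrg1. Of these 10 genes 9 were measured, by 20 of the 34945 probe sets that carry a single gene symbol, and they are 9 of the 18193 genes tested; Areg was not analysed here. A gene was read from its probe set with the highest mean over all arrays, and the other 11 probe sets served as a check.

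The tumours were of 344SQ, described in the labels as highly metastatic, of 393LN, described as intermediately metastatic, and of 393P, described as non-metastatic, with 4 arrays per line. All 3 lines came from p53R172H∆g/+ K-rasLA1/+ mice, which carry a mutant p53 allele and an oncogenic K-ras allele, so the K-ras mutation that acts below these receptors was shared by all groups. 344SQ was grown from a subcutaneous tumour of one mouse, and 393LN and 393P were grown from a mediastinal lymph node and a primary lung tumour of another mouse. Each group is tumours of 1 line, a mass population of cells, so the line, its mouse of origin and its site of origin cannot be told apart. Host age and sex are not given in the sources used here. The arrays hold RNA of whole syngeneic tumours, so fewer cells of a type and less RNA per cell cannot be told apart in these bulk samples, and the labels do not say whether each array had its own mouse. The medians of the arrays ran from 7.19 to 7.29 in log2 units. Actin probes gave a 3' over 5' ratio, which grows as RNA degrades, of 1.47 for 393P replicate 1 and of 1.04 to 1.19 for the remaining arrays. The keratin genes Krt8 and Krt18 and the E-cadherin gene Cdh1, which mark epithelial tumour cells, were far above the floor of the scale in all lines, with Krt8 at 13.98 ± 0.04 in 344SQ, 13.81 ± 0.13 in 393LN and 13.98 ± 0.14 in 393P (SD, n = 4 each). These 3 are among the 5 of 14 epithelial markers that did not pass; the other 9 fell in 344SQ against 393P and against 393LN, among them Epcam (-3.82 and -3.64) and Esrp1 (-7.06 and -6.70), chosen after their values were seen.

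ErbB receptors are tyrosine kinases of the cell surface that pair when a ligand binds and then signal through the Ras and phosphoinositide 3-kinase (PI3K) routes. Egfr is the receptor of the EGF-type ligands, Erbb2 has no known ligand of its own and serves as a preferred partner, Erbb3 has a weak kinase and recruits PI3K when paired, and Erbb4 binds neuregulins and some EGF-type ligands. The ligands are made as membrane-anchored precursors and are released by proteases of the ADAM family. In the lung these receptors act in epithelial growth and repair, and EGFR is a frequent driver of human lung adenocarcinoma.

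The RefSeq promoter table (build GRCm38.p6) holds 6 of the 10 genes, among them the 2 ligand genes that passed the test in opposite directions in 344SQ against 393P, Tgfa and Btc. The stretch that ends just before the annotated gene is shown for both. Whether these bases regulate the 2 genes was not tested. Capitals mark matches to the E-box CAGGTG, a sequence bound by the Zeb and Snail family of repressors; its reverse complement CACCTG was also searched, and the motif does not overlap the others. The Tgfa stretch is 66 bases, chr6:86194972-86195037 on the plus strand, and the Btc stretch 250 bases, chr5:91402995-91403244 on the minus strand.
Tgfa: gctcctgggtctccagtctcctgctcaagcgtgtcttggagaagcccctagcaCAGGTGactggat
Btc: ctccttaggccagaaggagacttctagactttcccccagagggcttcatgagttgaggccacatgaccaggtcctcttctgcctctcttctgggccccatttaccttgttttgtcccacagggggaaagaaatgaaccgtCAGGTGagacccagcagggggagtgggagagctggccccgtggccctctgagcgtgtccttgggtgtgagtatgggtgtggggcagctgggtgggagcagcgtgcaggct
Each holds 1 match, a motif found in 17.2% of the 32851 RefSeq promoter windows of 250 bases, a length greater than the Tgfa stretch. The window of Areg also holds 1 match, and those of Egfr, Erbb2 and Erbb4 hold 0. Neither printed stretch matched TATAAA (12.4% of windows), TGANTCA, the AP-1 motif (6.75%), or GGGCGG, the GC box (32.7%), on either strand; the rest of the Tgfa window, which lies in the annotated gene and is not shown, holds 2 GC boxes. These matches describe the letters and say nothing of binding. Btc lies beside Areg, Ereg and Epgn in the gene order of chromosome 5, whereas Tgfa lies on chromosome 6.

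The levels below are log2(intensity + 16) of the authors' deposited probe set intensities. The floor of this scale is 4.09, and a fold computed on it understates the change of a dim gene. Here rose and fell mean a limma adjusted p under 0.05, with Benjamini-Hochberg adjustment over all genes tested and 1 fit for the 3 lines. In 344SQ against 393P, 1 ErbB gene rose (Btc) and 2 fell (Erbb3 and Tgfa) among the 9, a count to set against 10.5% of all genes tested. In 344SQ against 393LN, 1 rose (Hbegf) and 1 fell (Erbb3), against 10.9% of all genes. In 393LN against 393P limma called 0 of the 9, with 1 at an unadjusted p under 0.05, where 2.45% of all genes passed (1.75% higher and 0.698% lower). The median log2 change of the 9 genes was 0.15, -0.01 and -0.05 in these comparisons, and that of all genes was -0.00, -0.02 and 0.01. The 2 comparisons with 344SQ share its arrays.

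Erbb3, which encodes the receptor with the weak kinase, was the receptor gene that changed. Its level was 9.11, 9.04, 8.84 and 9.47 on the 344SQ arrays, 11.17, 11.36, 11.57 and 10.75 on the 393LN arrays and 11.45, 11.34, 11.45 and 11.37 on the 393P arrays. The highest 344SQ array was lower than every array of 393LN and 393P. Lines lay so apart for 17.4% of all genes in 344SQ against 393LN and for 16.7% against 393P. Erbb3 was 4.88-fold lower in 344SQ than in 393P (log2 change -2.29 ± 0.17 SE, adjusted p = 8.95e-06) and 4.28-fold lower than in 393LN (-2.10 ± 0.17, adjusted p = 1.76e-05). Between 393LN and 393P its change was -0.19 (95% interval -0.56 to 0.19, adjusted p = 0.677), and the values of these lines overlapped.

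Erbb2, the gene of the ligandless partner, was at 9.10, 8.71, 9.0 and 8.88 in 344SQ, 9.01, 9.25, 9.51 and 9.07 in 393LN and 9.28, 9.35, 9.16 and 9.26 in 393P. The 344SQ values all lay under those of 393P and overlapped those of 393LN. Its change in 344SQ did not pass the test against 393P (-0.34, interval -0.62 to -0.06, adjusted p = 0.121) or against 393LN (-0.29, adjusted p = 0.176). The 4 values of one line lay clear of those of the other for 16.7% of all genes in the first of these comparisons.

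Egfr, the gene of the EGF receptor, was at 10.48, 10.46, 10.33 and 10.19 in 344SQ, 10.12, 10.12, 10.14 and 10.17 in 393LN and 10.15, 10.24, 10.21 and 10.26 in 393P. The 344SQ arrays all lay above those of 393LN, as 1 of the lines did for 17.4% of genes, and overlapped 393P. The change did not pass against 393LN (0.23, interval 0.03 to 0.42, adjusted p = 0.138) or 393P (0.15, interval -0.05 to 0.34, adjusted p = 0.371). Erbb4, the gene of the neuregulin receptor with full kinase activity, lay near the floor on every array, from 4.30 to 4.91 in 344SQ, 4.34 to 5.47 in 393LN and 4.18 to 4.63 in 393P, so its probe set can show little. For Egfr and Erbb2, no neighbours in the order of the 3 lines differed by a change that passed.

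**Figure D1:**
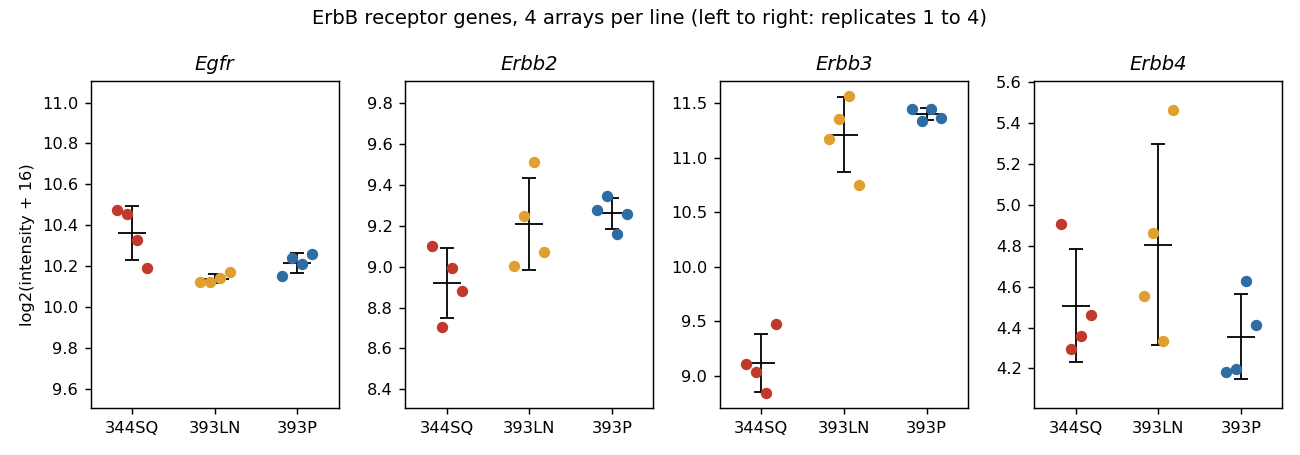
Levels of the 4 receptor genes on each array, as log2(intensity + 16), for 344SQ, 393LN and 393P; points are arrays, bars the mean and SD of 4, and each panel has its own axis range. The 4 Erbb3 values of 344SQ, from 8.84 to 9.47, sit below every value of 393LN and 393P, from 10.75 to 11.57.

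Among the ligands, Tgfa was lower in 344SQ, whereas Btc, Ereg and Hbegf had positive changes there. That of Btc passed against 393P only, that of Hbegf against 393LN only, and that of Ereg in neither comparison. Tgfa, which encodes transforming growth factor alpha, was at 9.90, 10.56, 10.20 and 10.19 in 344SQ, 10.89, 10.74, 10.79 and 10.41 in 393LN and 11.37, 11.47, 11.27 and 11.14 in 393P. By their means the lines came in the order 344SQ, 393LN, 393P, and neither 344SQ nor 393LN reached a 393P value. Lines lay so apart for 16.7% of all genes in 344SQ against 393P and for 10.3% in 393LN against 393P. Tgfa was 2.14-fold lower in 344SQ than in 393P (log2 change -1.10 ± 0.15, adjusted p = 0.000721). The steps between neighbours in that order did not pass, at -0.49 (interval -0.82 to -0.17, adjusted p = 0.0554) for 344SQ against 393LN and -0.60 (interval -0.93 to -0.28, adjusted p = 0.0595) for 393LN against 393P. Each of these steps passed in 7 of 21 alternative settings, 2 of them among the 12 fits with 1 array left out. The adjusted p ran from 0.0289 to 0.512 for the first step and from 0.0303 to 0.266 for the second.

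Btc encodes betacellulin, which binds both Egfr and Erbb4. Its level was 8.92, 9.85, 9.99 and 10.16 in 344SQ, 8.91, 9.10, 9.57 and 9.15 in 393LN and 8.11, 8.75, 8.82 and 9.08 in 393P. Replicates 2, 3 and 4 of 344SQ lay above every array of the other lines, and replicate 1 lay within the 393P range. Btc was 2.05-fold higher in 344SQ than in 393P (1.04 ± 0.27, adjusted p = 0.0309). That call ended without 344SQ replicate 2, 3 or 4 or without 393P replicate 1, 2 or 3, with adjusted p between 0.0601 and 0.0882 and changes between 0.84 and 1.08, and in a fit of 344SQ and 393P alone (adjusted p = 0.0645). The smallest change, 0.84, came without 393P replicate 1, which had the lowest Btc value and the actin ratio of 1.47. The part of RNA quality in the Btc result was not tested. Against 393LN the change was 0.55 (interval -0.05 to 1.14, adjusted p = 0.237), or 0.82 without 344SQ replicate 1 (adjusted p = 0.0482), and 393LN against 393P gave 0.49 (adjusted p = 0.432).

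Hbegf encodes the heparin-binding ligand of Egfr and Erbb4, which macrophages make as well as epithelial cells. Its level was 11.74, 11.53, 11.71 and 12.40 in 344SQ, 10.97, 10.83, 10.28 and 10.85 in 393LN and 10.56, 11.64, 11.60 and 10.76 in 393P. The 393P arrays split, with replicates 2 and 3 inside the 344SQ range and replicates 1 and 4 inside that of 393LN. Hbegf was 2.16-fold higher in 344SQ than in 393LN (1.11 ± 0.27, adjusted p = 0.0227), with no overlap, as for 17.4% of all genes. Without 344SQ replicate 4 the change was 0.92 (adjusted p = 0.0545) and without 393LN replicate 3 it was 0.96 (adjusted p = 0.0687). Against 393P it was 0.71 (interval 0.11 to 1.30, adjusted p = 0.134).

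Ereg, the gene of epiregulin, was at 10.01, 10.31, 10.28 and 9.85 in 344SQ, 10.60, 9.34, 8.48 and 8.52 in 393LN and 8.83, 9.19, 9.32 and 9.04 in 393P. The 344SQ values lay above all of 393P, a comparison in which lines lay so apart for 16.7% of all genes. In 393LN replicate 1 was higher than any 344SQ array while the other 3 were lower. The change was 1.02 ± 0.37 against 393P (adjusted p = 0.115) and 0.88 ± 0.37 against 393LN (adjusted p = 0.162), and neither passed. Replicate 1 of 393LN decided both: without it the changes were 1.02 (adjusted p = 0.00788) and 1.34 (adjusted p = 0.00396). A fit of 344SQ and 393P alone, which does not use 393LN, gave an adjusted p of 0.00361. With it the SD was 0.222 in 344SQ, 0.997 in 393LN and 0.209 in 393P. That array also had the highest mean level of the muscle and fat markers, at 10.00 against 8.19 to 9.22 on the other 11. By summed intensity of these markers it was not the highest, with 13680 against 17820 on 344SQ replicate 3. Its mean level of endothelial markers, 9.48, was the highest as well. The part of these tissues in the Ereg value was not tested.

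Nrg1, the gene of the neuregulin that binds Erbb3 and Erbb4, was at 8.28, 8.25, 8.12 and 7.98 in 344SQ, 8.15, 7.87, 8.16 and 8.48 in 393LN and 8.26, 7.90, 7.89 and 8.03 in 393P. All lines overlapped. The change in 344SQ was 0.13 (interval -0.17 to 0.44, adjusted p = 0.638) against 393P and -0.01 (interval -0.31 to 0.29, adjusted p = 0.970) against 393LN.

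**Figure D2:**
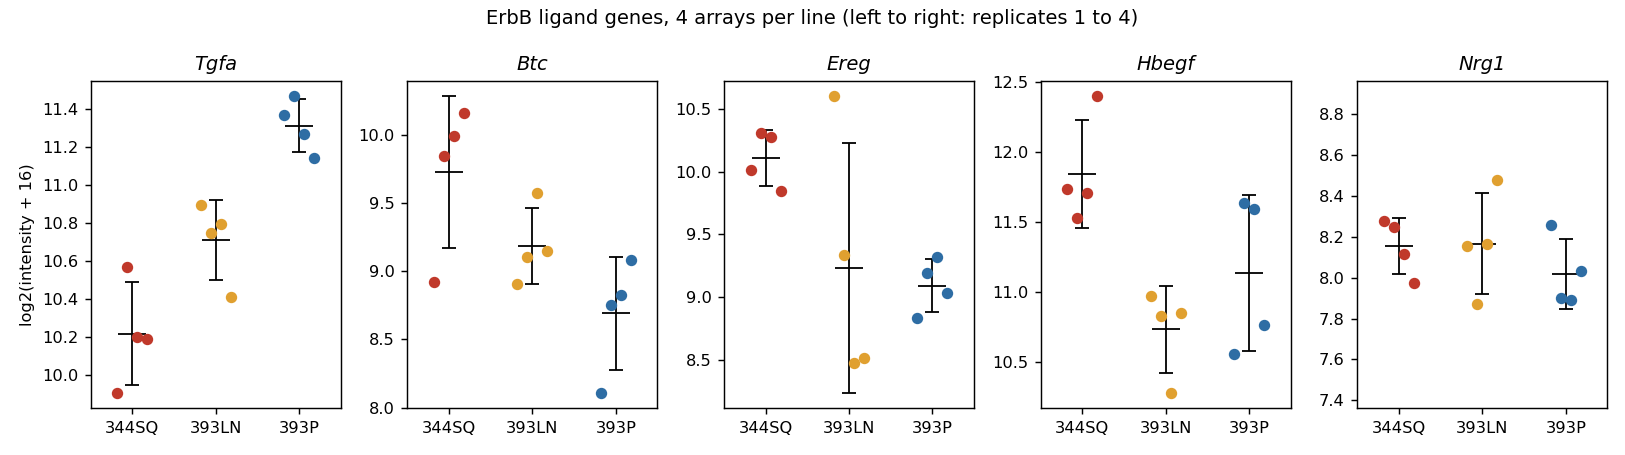
Levels of the 5 measured ligand genes on each array, as log2(intensity + 16), for 344SQ, 393LN and 393P; points are arrays in the order of replicates 1 to 4, bars the mean and SD of 4, and each panel has its own axis range. The Tgfa means were 10.21, 10.71 and 11.31 in 344SQ, 393LN and 393P, and neither step between neighbours passed. The highest 393LN array for Ereg stands at 10.60.

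**Figure D3:**
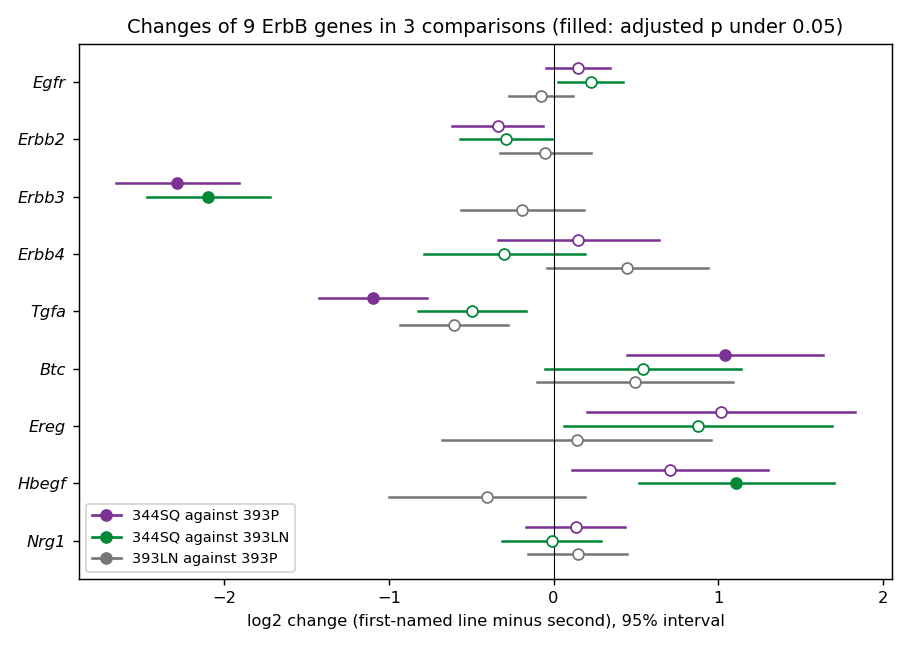
Log2 change with its 95% interval for the 9 genes in 3 comparisons, 344SQ over 393P, 344SQ over 393LN and 393LN over 393P; filled points passed at an adjusted p under 0.05. Erbb3 at -2.29 and -2.10 lies far from the other receptor genes, whose changes in all 3 comparisons were between -0.34 and 0.45.

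The other probe sets of these genes agreed in part. Hbegf has 1 other probe set, with changes of 0.77 in 344SQ against 393P (adjusted p = 0.0437, adjusted over all probe sets with 1 symbol) and 1.03 against 393LN (adjusted p = 0.0118). It thus passed in both comparisons, and the brighter one passed in the second. The other Btc probe set had a change of 1.16 against 393P (adjusted p = 0.0566). For Tgfa the other 2 probe sets had changes of 0.02 (adjusted p = 0.976) and 0.03 (adjusted p = 0.948) in 344SQ against 393P, at mean levels of 9.33 and 8.37, so the fall was seen with 1 of 3 probe sets. The other Erbb3 probe set was dim, with a mean of 5.07, and its change was -0.50 (interval -1.10 to 0.11) against 393P and -0.003 (interval -0.60 to 0.60) against 393LN, so the fall of Erbb3 was seen with 1 of 2 probe sets. Of the 7 Egfr probe sets none passed in any of the 3 comparisons in limma, and their changes in 344SQ ran from -0.23 to 0.48 against 393P and from -0.31 to 0.66 against 393LN. The probe sets of one gene can lie on different transcript forms, which these files do not resolve.

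**Figure D4:**
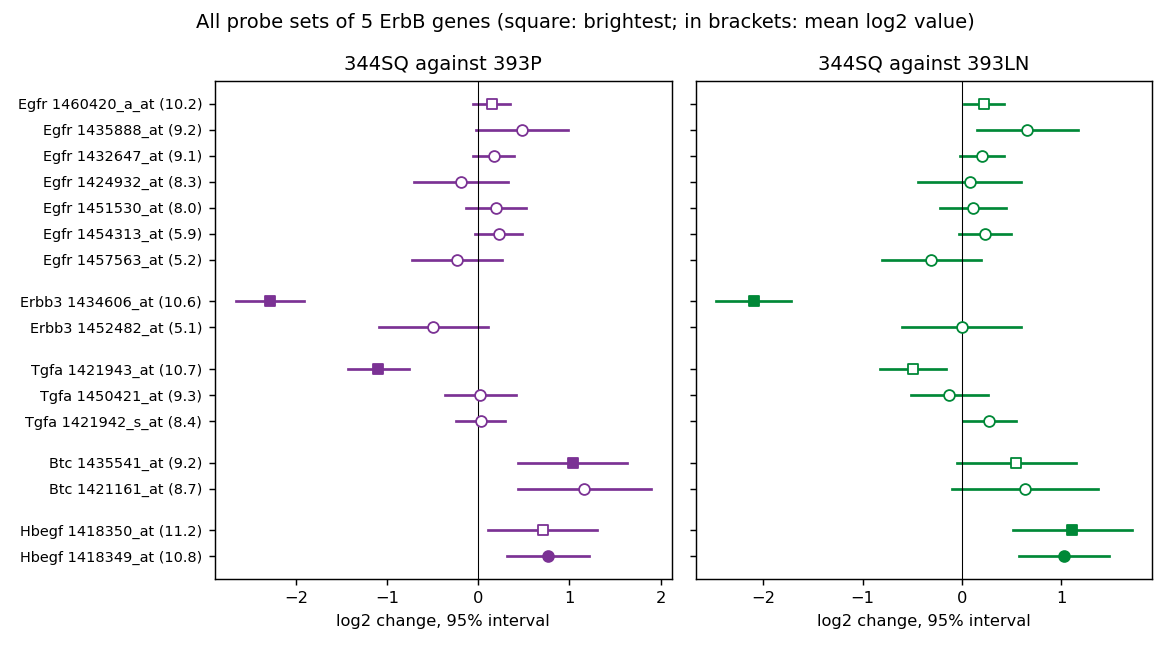
Log2 change with its 95% interval for every probe set of the 5 genes that have more than 1, in 344SQ against 393P and 344SQ against 393LN; squares mark the brightest probe set, filled marks an adjusted p under 0.05, and brackets hold the mean level. The Hbegf and Btc probe sets lie together, whereas the brightest Tgfa probe set, at -1.10, stands apart from the other 2, near 0.

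The wider pathway was described with lists of other ligands, proteases, inhibitors, adaptors and partners. None of the 5 other EGF-type and neuregulin ligands (Egf, Epgn, Nrg2, Nrg3 and Nrg4) passed in any comparison by limma, and 0 had an unadjusted p under 0.05. Epgn, the neighbour of Ereg on chromosome 5 and a gene chosen after its values were seen, had a change of -0.09 against 393P. Of 15 genes that release or mature the ligands, 0 passed in limma in 344SQ against 393P (4 at an unadjusted p under 0.05), and 0 against 393LN (2 so). Adam17, the main protease that sheds Tgfa and Hbegf, was at 10.08 ± 0.45 in 344SQ, 10.35 ± 0.19 in 393LN and 10.19 ± 0.17 in 393P, a gene chosen after its values were seen.

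Of 24 receptor inhibitors and turnover genes, 3 rose and 2 fell in 344SQ against 393P, beside 4.86% of all genes that rose and 5.62% that fell; the list's median was 0.10. Ptprk, a receptor phosphatase that removes phosphate from Egfr, fell by 0.81 (adjusted p = 0.000470), and the ubiquitin ligase gene Nedd4 rose by 0.63 (adjusted p = 0.00821). Spred2, an inhibitor of the Ras to Raf step, rose by 0.47 (adjusted p = 0.0206). The other 2, chosen after their values were seen, were Socs4, which rose by 0.43, and Cblc, an epithelial ubiquitin ligase of the Cbl family, which fell by 0.83. In 344SQ against 393LN again 3 rose and 2 fell, beside 3.99% and 6.92% of all genes. They were Spry2, a feedback inhibitor of receptor kinase signalling (0.78, adjusted p = 0.0252), Spred2 (0.42), Cblc (-0.95, adjusted p = 0.0185) and, chosen after their values were seen, Spry4 (0.42) and Ptprk (-0.37). Errfi1 and Lrig1, inhibitors that act on the receptors themselves, were picked with their values in view and gave changes of -0.30 (adjusted p = 0.289) and -0.02 (adjusted p = 0.940) against 393P.

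Of 37 adaptors and proximal effectors 1 rose and 6 fell in 344SQ against 393P, beside 4.86% of all genes that rose and 5.62% that fell. Against 393LN 1 rose and 5 fell, beside 3.99% and 6.92% of all genes. The list medians were -0.04 and 0.02. Eps8l1, a relative of the Egfr substrate Eps8, fell by 2.08 against 393P (adjusted p = 0.000110) and by 1.44 against 393LN. The 344SQ arrays held 6.86, 6.13, 5.81 and 5.84, against 7.79, 7.79, 7.63 and 7.19 in 393LN and 7.99, 8.25, 8.38 and 8.32 in 393P. Pik3r3, a regulatory subunit of PI3K, had log2 changes of -1.15 against 393P and -1.23 against 393LN. The phospholipase gene Plcg2, best known from blood cells, had changes of -1.55 and -1.90, and both genes passed each time. In the other direction Pik3ca, the catalytic PI3K subunit, rose by 0.65 against 393P (adjusted p = 0.0127), and the regulatory subunit gene Pik3r2 rose by 0.47 against 393LN (adjusted p = 0.0266). Chosen after their values were seen, the adaptor genes Grb7, Grb14 and Grb2 fell by 0.60, 0.46 and 0.38 against 393P, and Grb2 and Pik3cb fell by 0.45 and 0.70 against 393LN.

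Of 18 receptor partners and surface cofactors 2 rose and 3 fell in 344SQ against 393P, beside 4.86% and 5.62% of all genes, and 2 rose and 3 fell against 393LN, beside 3.99% and 6.92%. Muc4, a membrane mucin that binds Erbb2, was at 5.92, 5.51, 5.45 and 5.47 in 344SQ, 11.12, 10.13, 9.02 and 8.21 in 393LN and 10.64, 10.42, 10.03 and 10.28 in 393P. It fell by 4.75 against 393P (adjusted p = 6.38e-05) and fell by 4.03 against 393LN (adjusted p = 0.000294). Cav1, the caveolin gene, rose by 0.88 and 0.77, and Gpc1, a heparan sulphate proteoglycan gene, by 1.28 against 393P (adjusted p = 0.0103). The mucin gene Muc1 fell by 0.97 against 393LN (adjusted p = 0.0162) and by 0.88 against 393P. Chosen after their values were seen, the integrin gene Itgb4 fell by 0.85 and 0.91 and Itga6 rose by 0.47 against 393LN.

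Some of these pathway calls ended when 1 array was left out. Those of Ptprk, Nedd4, Pik3ca, Grb14, Cav1, Gpc1, Muc4, Eps8l1, Pik3r3 and Plcg2 in 344SQ against 393P held without any 1 of the 12 arrays. Those of Muc4, Muc1, Cav1, Eps8l1, Pik3r3, Plcg2 and Grb2 against 393LN also held. The call of Spred2 ended without any 1 of 3 arrays in the first of these comparisons (344SQ replicates 2 and 3 and 393P replicate 4, highest adjusted p 0.0613) and any 1 of 6 in the second (highest 0.0895). Spry2 and Cblc in the second comparison ended without any 1 of 3 arrays each (highest 0.0804 and 0.0561), and Pik3r2 without any 1 of 4 (highest 0.0697). Among the genes chosen after their values were seen, the calls of Socs4, Cblc, Grb2, Grb7, Muc1 and Itgb4 in the first comparison ended without any 1 of 4 to 7 arrays (highest adjusted p between 0.0705 and 0.0973). In the second, those of Ptprk, Spry4, Pik3cb and Itgb4 ended without any 1 of 4 to 10 arrays (highest between 0.0602 and 0.112), and that of Itga6 without 344SQ replicate 2 (0.0503). Averaging all probe sets of a gene ended the calls of Ptprk, Nedd4, Socs4, Spred2, Grb2 and Grb14 against 393P and those of Ptprk, Spred2 and Grb2 against 393LN. Fitting the 2 lines compared alone ended the calls of Cblc against 393P and of Ptprk, Spred2, Spry2, Spry4 and Pik3r2 against 393LN.

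In 393LN against 393P 2 of the 99 measured pathway genes passed, a share near the 2.45% of all genes. Grb14, an adaptor of receptor kinases, fell by 0.56 (adjusted p = 0.0152), a call that ended without 393P replicate 3 (adjusted p = 0.0531), with the mean of all its probe sets (0.254) and in a fit of the 2 lines alone (0.0573). Ptprk fell by 0.45 (adjusted p = 0.0480), and leaving out any 1 of 11 arrays ended that call (highest 0.131). It also ended with each array centred on its median (0.0631), with a pseudocount of 1 (0.0584), with the mean of all its probe sets (0.802) and in a fit of the 2 lines alone (0.109).

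**Figure D5:**
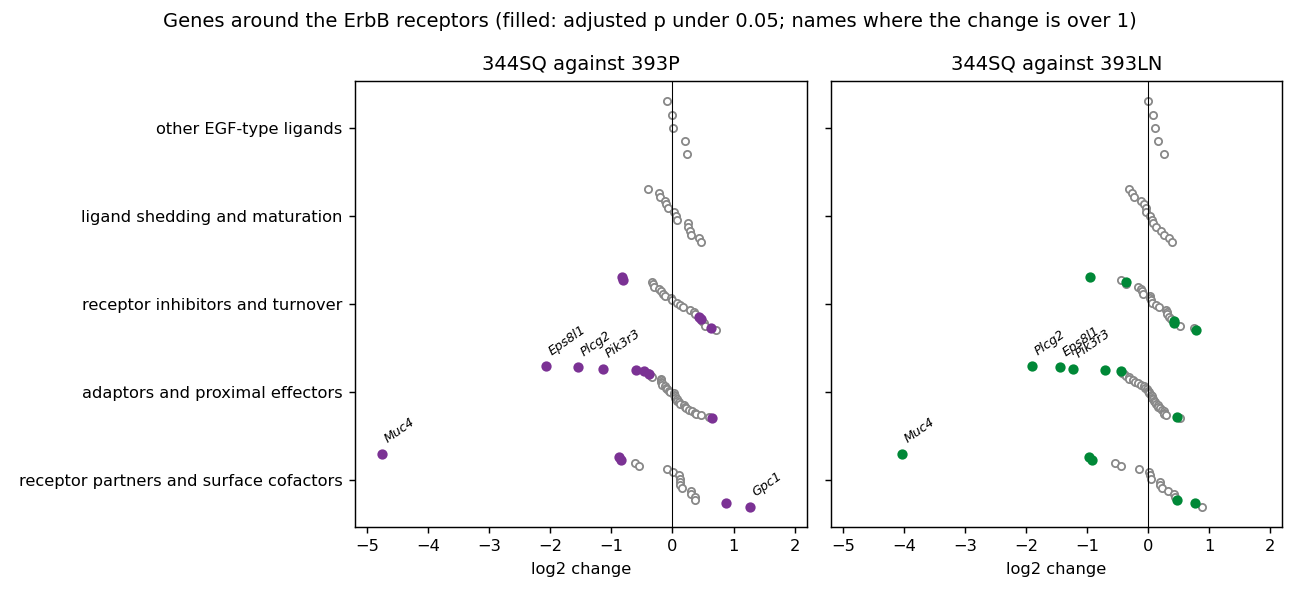
Log2 change of each gene of the 5 pathway lists in 344SQ against 393P and 344SQ against 393LN, sorted within a list; filled points passed at an adjusted p under 0.05 and names are given where such a change exceeds 1. Muc4 at -4.75 and -4.03 lies farthest from 0, and no gene of the 2 upper lists passed.

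The genes whose levels over the 12 arrays were most like those of each changed ErbB gene were sought among 9089 genes with a mean above the median. For Erbb3 they were the iron-sulphur cluster gene Nfu1, the laminin chain gene Lama3 and the syntaxin gene Stx3 (Pearson r = 0.984, 0.981 and 0.981). For Tgfa they were the polarity gene Crb3, the checkpoint kinase gene Chek2 and the adenylate kinase gene Ak4 (r = 0.951, 0.950 and 0.947). For Btc they were Urgcp, Acat1, a mitochondrial thiolase gene, and Map2k6, a kinase of the p38 route (r = 0.932, 0.929 and 0.928). For Hbegf they were Apod, Ankrd54 and the lamin gene Lmna (r = 0.916, 0.899 and 0.886). The arrays share their lines, so these r are descriptions. After subtracting each line's mean, r was 0.753 for Erbb3 with Nfu1, 0.494 with Lama3 and 0.555 with Stx3. With the genes in the order above it was 0.647, 0.82 and 0.567 for Tgfa and 0.849, 0.847 and 0.833 for Btc. For Hbegf it was 0.887 with Apod, 0.845 with Ankrd54 and 0.849 with Lmna, and none of Apod, Ankrd54 and Lmna passed in any comparison. In 344SQ against 393P Lama3 fell by 5.29, Stx3 by 1.98 and Nfu1 by 1.12, and in 344SQ against 393LN by 5.29, 1.79 and 0.95.

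Markers of some cell types in the tumours also differed between the lines. Of 14 measured epithelial markers 9 fell and 0 rose in 344SQ against 393P and also against 393LN, with summed intensities of 68810 to 75980 in 344SQ, 93320 to 117700 in 393LN and 95660 to 125000 in 393P. No marker of any list was at the floor of 4.09 on any array, but the splicing factor gene Esrp1 lay close to it in 344SQ, at 4.25 to 4.72. Of 11 basal and squamous markers 3 fell and 0 rose in 344SQ against 393P, and 3 fell and 1 rose against 393LN. Their sums were 7826 to 11710 in 344SQ, 7544 to 19390 in 393LN and 12010 to 17220 in 393P. Mast cell markers summed to 11430 to 16050 in 344SQ, 1457 to 2022 in 393LN and 2594 to 6003 in 393P. Of the 10, Mcpt1 and Mcpt2 rose in 344SQ against both 393P (1.95 and 2.71) and 393LN (4.04 and 5.34), Hdc fell by 0.89 against 393P, and no other passed in limma, Kit included (-0.22 against 393P, adjusted p = 0.565). Macrophage markers summed to 21880 to 32800 in 344SQ, 26010 to 39390 in 393LN and 29680 to 49330 in 393P; of 11, 3 fell and 0 rose in 344SQ against 393P and 2 fell and 1 rose against 393LN. Neutrophil markers summed to 2664 to 19800 in 344SQ, 4662 to 12060 in 393LN and 8807 to 19920 in 393P. The highest 344SQ sum was on replicate 4, the array with the most Hbegf. In 393P it went the other way, as replicates 1 and 4 had the highest sums (18240 and 19920) and the lowest Hbegf (10.56 and 10.76). After subtracting each line's mean, r of Hbegf with the mean level of neutrophil markers was 0.206 over the 12 arrays. It was 0.359 with macrophage markers, in a range over all marker lists from -0.114 (T, NK and B cells) to 0.573 (epithelial). Of the 8 neutrophil markers Il1b and Padi4 fell in 344SQ against 393P (-1.34 and -3.36), Padi4 fell against 393LN (-3.36), and 0 rose. None of 10 fibroblast markers passed in limma, with sums of 55780 to 68200 in 344SQ, 39570 to 59050 in 393LN and 39830 to 55420 in 393P. All 10 had positive changes in 344SQ, from 0.095 to 0.828 against 393P and from 0.232 to 0.642 against 393LN. In each of these comparisons 5 had an unadjusted limma p under 0.05. The part of these cell types in the Erbb3, Tgfa, Btc and Hbegf results was not tested.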

How the data were processed

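Total RNA of tumours was measured on 12 Affymetrix arrays, 1-colour, with biotin-labelled cRNA, per the labels' protocols. The values are probe set intensities as deposited by the authors; the sources used here do not give their summary and normalization steps. Each value, 1 to 21921, equals 2 to a power of 2 decimals (100%, tolerance 1e-08), so a log2 table came first. The number of arrays limits the precision. There were 0 other value columns.

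Values were taken as log2(intensity + 16). The annotation pairs 34945 of the 45101 probe sets with a single symbol, and these were used; 932 carry several, 9160 are unnamed there and 64 are controls, and Entrez changed 0 symbols. Per gene the probe set with the highest mean was tested, with no filter, by limma 3.58.1 (lmFit, eBayes, R 4.3.3), with a mean per line, 9 residual degrees of freedom and two-sided p. Groups come from the source names, and replicate numbers only name arrays. The p-values measure the spread between these samples, which may be technical.

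Pathway genes were named by rule: up to 3 with the smallest p per list and comparison among those with an adjusted p under 0.05, plus 1 in the minority direction; any other is marked. Members and lists were chosen with earlier results of these data known. Fits were tested on simulated data. Alternatives were 2 other scalings, a pseudocount of 1 or 64, filters that drop the lowest 25% or 50% of genes, the mean of a gene's probe sets, another prior, the 2 lines alone, and each array left out. Promoter sequences are from RefSeq, build GRCm38.p6.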

Additional observations from a re-analysis of the deposited data

How the results depend on the processing

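The falls of Erbb3 in 344SQ against 393P and 393LN and of Tgfa against 393P kept their direction and an adjusted p under 0.05 (limma) in all 21 alternatives each, other probe sets tested singly aside, with changes from -2.41 to -1.39, -2.25 to -1.05 and -1.21 to -0.35. The smallest of these came from averaging all probe sets of a gene. Btc against 393P passed in 14 of 21 and Hbegf against 393LN in 19 of 21. Leaving out 1 array at a time, the number of ErbB genes called was 2 to 4 in 344SQ against 393P, 1 to 3 in 344SQ against 393LN and 0 to 1 in 393LN against 393P. In the same fits the share of all genes called was 6.92% to 10.6%, 6.41% to 13.6% and 0.857% to 2.41%. In the last comparison it was 1 (Tgfa) in place of 0 with quantile normalization, with a pseudocount of 64, with the dimmest 25% or 50% of genes left out, and with a trend and robust prior; the cause was not tested. Changes turned sign as follows, and none passed then; of these only Tgfa against 393P had passed. Nrg1 in 344SQ against 393LN was 0.018 with quantile normalization, and leaving out 1 array gave -0.11 to 0.091, at or above 0 without 344SQ replicate 3 or 4 or 393LN replicate 4. In 393LN against 393P that range was -0.151 to 0.017 for Erbb2 and -0.318 to 0.392 for Ereg, with the opposite sign without 393LN replicate 1. Of the other Egfr probe sets, changes of opposite sign were -0.19 and -0.23 in 344SQ against 393P, -0.31 in 344SQ against 393LN, and 0.087 and 0.077 in 393LN against 393P. Of the other Tgfa probe sets they were 0.025 and 0.018, 0.27, and 0.15 in the same order; the brightest passed in the first comparison only. The scalings moved the median of all genes by less than 0.03. No paired analysis was possible because the labels give no replicate numbers shared by the lines. Dim probe sets, such as those of Erbb4, limit what can be seen.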
